A study of Hypsibius dujardini with 126 samples.

Results

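Embryos 26-35, at label times of 47 to 56 h, were compared with embryos 36-48, at 57 to 69 h, of the tardigrade Hypsibius dujardini. The members were chosen by embryo number: 23 of the 126 single embryos of a developmental time course, all from the run of embryos 26-78, in which consecutive numbers stand 1 h apart. Embryos whose transcript counts summed to under 63405, which is 10% of the median embryo of the series, were left out. This kept 17 embryos, all 10 of the earlier group and 7 of the 13 of the later group. Both groups came from cultures in bottled spring water, were cut out of the shed cuticle of the mother, watched to the 2-cell stage, kept at 20 °C and frozen singly, with no genotype, treatment or age difference other than the hours of incubation. RNA was read by CEL-Seq, a method for very small samples in which polyadenylated RNA receives a sample barcode, is amplified linearly by in vitro transcription and is sequenced near its 3' end. The labels count time from fertilization whereas the protocol counts from the 2-cell stage, so the hours are used as given and their starting point is open to doubt. The labels tie no embryo to a mother or clutch, so some embryos may share a mother, and p-values speak only of the variation among these embryos.

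Tardigrades are microscopic relatives of arthropods and velvet worms, and H. dujardini develops directly, without a larva, inside the cuticle that the mother sheds. After cleavage and the formation of the germ layers, the embryo lengthens, forms segments and limb buds, and then builds nerve, muscle, gut, the feeding apparatus with its piercing stylets, claws and cuticle before hatching. Gene programmes for such steps are typically switched on and off one after another, so embryos collected hour by hour can show transcripts that appear, peak and go. The labels do not say which of these steps falls into the hours compared. The transcript IDs are not paired with gene names in the sources used here, so the transcripts are described by their levels and timing, tissue markers could not be checked, and 4 of them are named by ID.

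A small share of the transcripts was called different between the groups, and many of these differed steeply. Of 5835 transcripts tested, 34 were higher at 57-69 h than at 47-56 h, which is 0.583% of those tested, and 79 were lower, which is 1.35% (edgeR's quasi-likelihood test, Benjamini-Hochberg adjusted p under 0.05). The 34 took 0.195% of the counts in the median embryo of 47-56 h and 3.26% in the median embryo of 57-69 h. The 79 took 3.77% in the median earlier embryo and 0.950% in the median later embryo. The smallest change called was 0.96 log2 units and the median SE of the called changes was 1.25, so smaller changes would mostly go uncalled. Without embryo 37, a shallow library described below, 6347 transcripts were tested, 76 were higher (1.20%) and 132 were lower (2.08%), and 110 of the 113 calls were shared. Leaving out any 1 of embryos 27 to 32, 41, 42, 43 and 48 cut the calls to between 50 and 71, and 44 calls, 12 higher and 32 lower, were made in every leave-out. The filter on low counts asks for counts in 7 embryos, which 10 earlier embryos can supply alone but the 7 later ones only if embryo 37 has counts too. Without the filter the split turned to 134 higher and 77 lower, and with at least 10 counts in at least 4 embryos it was 88 higher and 75 lower. With RLE factors in place of TMM factors, the split was 40 higher and 42 lower. With library sizes taken from the spike-in RNA it was 35 higher and 115 lower. The median log2 change of all tested transcripts was -0.22 with TMM, 0.03 with RLE and -0.49 with spike-in library sizes, and the changes below are to be read against the first of these.

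**Figure D1:**
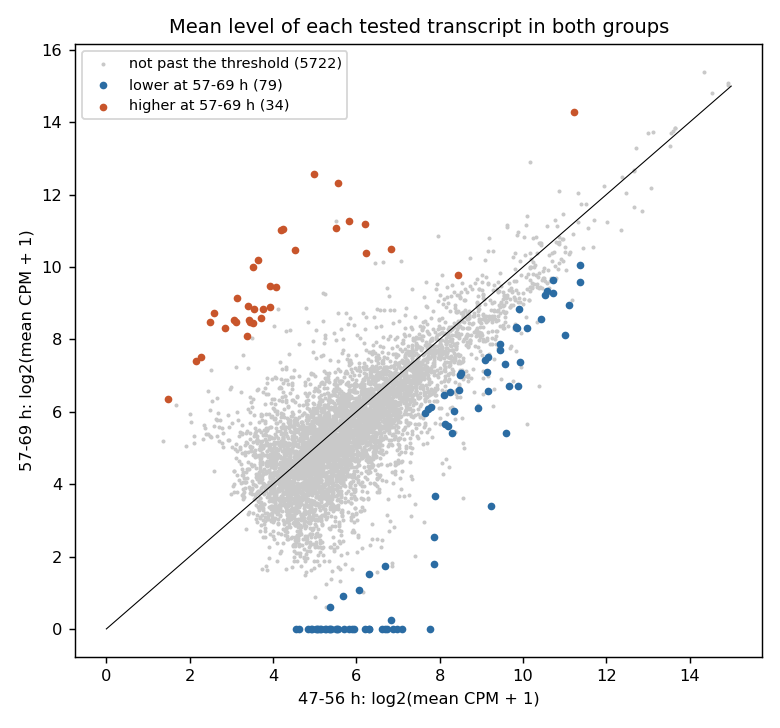
Mean level of each of the 5835 tested transcripts at 47-56 h (x axis, 10 embryos) and at 57-69 h (y axis, 7 embryos), both as log2(mean CPM + 1), where CPM is an embryo's count of a transcript scaled to 1e+06 transcript counts. Orange points are the 34 higher transcripts and blue points the 79 lower ones; 32 of the blue points lie on the bottom edge, with no count in any later embryo, and the line marks equal levels.

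The depth of the 17 kept embryos allowed the comparison, with 1 library standing apart. Total transcript counts ran from 609737 to 1756168 at 47-56 h and from 154116 to 1292816 at 57-69 h. The lowest of these was embryo 37, at 58 h, and the next lowest kept embryo had 537381. Relative to the added spike-in RNA, embryo 37 had a ratio of 2.04, where the other 6 kept later embryos had 4.42 to 6.51, and 67.7% of the tested transcripts had no count in it. The 6 embryos left out, at 60, 61, 65, 66, 67 and 68 h, had between 2649 and 33486 counts, so the kept later group has gaps at those hours. In 5 of these 6 a single transcript, HD_v1_tr_06538, singled out after its values were seen, took most of the counts, up to 70.8%, whereas it took at most 6.12% in the kept embryos. The share of reads that did not align was 50.8% ± 15.0 (SD, n = 10) and 48.1% ± 2.75 (SD, n = 7), and the earlier value includes embryo 31 at 92.9%.

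In the later group a larger share of the counts fell on the most abundant transcripts. The 10 most abundant transcripts of an embryo took 13.9% at the lowest, 18.7% in the median and 24.3% at the highest at 47-56 h, and 22.8%, 24.4% and 30.0% at 57-69 h. The groups overlapped only through the embryos at 55 and 56 h, which lay within the range of the later group. The means were 18.7% ± 3.60 (SD, n = 10) and 25.1% ± 2.56 (SD, n = 7), a difference larger than the spread (exact permutation test, 2-sided, p = 0.00170). Without embryo 37 the later mean was 24.3% ± 1.53 (SD, n = 6), with p = 0.00450 in the same exact test. This share rose with the hour over the 17 embryos, with Pearson's r = 0.74 and Spearman's rho = 0.80, whose permutation p-values adjusted over the 5 measures related to the hour were 0.00400 and 0.00105. Leaving out the 2 embryos farthest from the median hour gave r = 0.87. Within 47-56 h r was 0.94 (adjusted permutation p = 6.00e-04, n = 10) and within 57-69 h it was -0.50 (adjusted permutation p = 0.458, n = 7). The later embryos thus stood near the level that the embryos of 55 and 56 h had reached.

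The number of transcripts detected at equal depth was lower in the later group, and this difference rested on single embryos. After thinning each embryo to 154116 counts, embryos of 47-56 h held at least 5026, in the median 6041 and at most 6570 transcripts with a count, and those of 57-69 h held 2059, 5427 and 5910. The lowest of these values was that of embryo 37, and the other later embryos lay between 4553 and 5910, inside or just below the earlier range. The means were 5845 ± 527 (SD, n = 10) and 4934 ± 1338 (SD, n = 7), with an exact permutation p of 0.0335 (2-sided). Without embryo 37 the later mean was 5413 ± 468 (SD, n = 6) and the exact permutation p was 0.120. The call was also lost without embryo 27, 28, 29, 31, 32, 35 or 48, with exact permutation p-values from 0.0520 to 0.0703. Transcript counts per spike-in count, a measure of RNA recovered per embryo, were 5.14 ± 1.00 (SD, n = 10) and 4.60 ± 1.34 (SD, n = 7), and the log2 difference of -0.20 was within the spread (exact permutation test, p = 0.367). In whole embryos, fewer cells of a type and less RNA per cell cannot be told apart, which applies to every change in level given here.

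**Figure D2:**
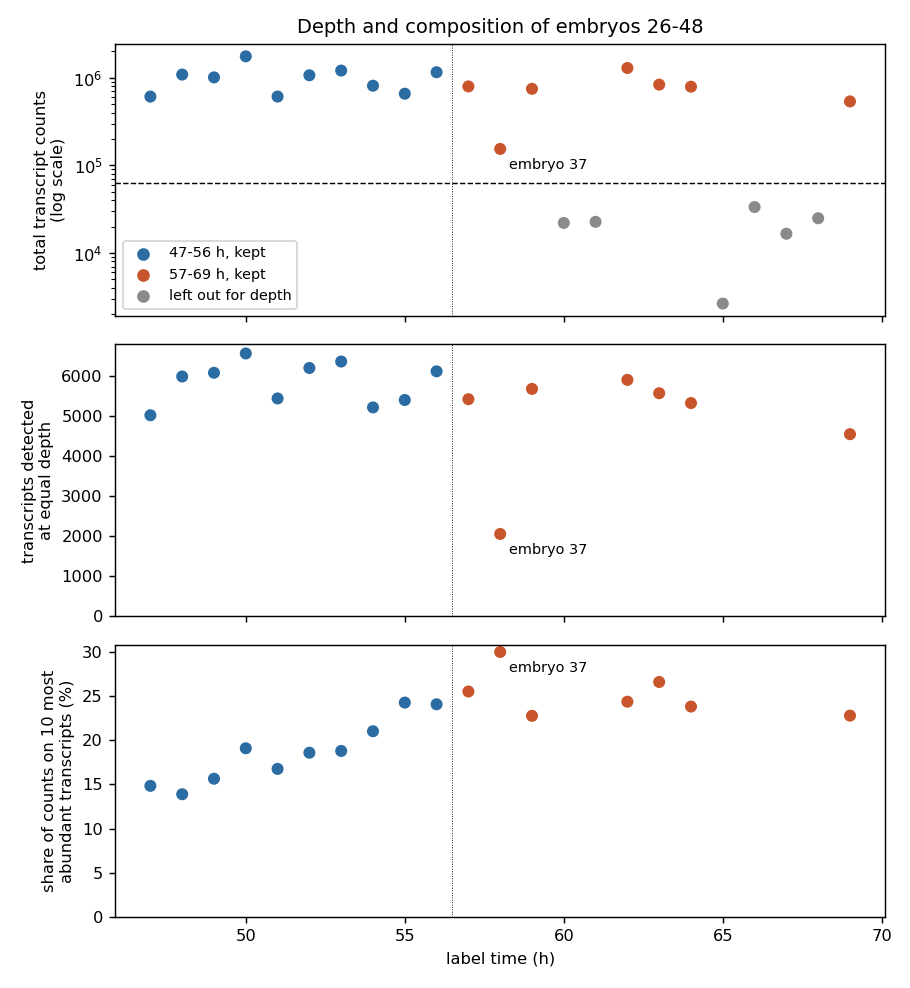
Total transcript counts on a log scale (top, all 23 embryos; the dashed line is the depth limit of 63405), transcripts detected after thinning to 154116 counts (middle, 17 kept embryos) and the share of counts on the 10 most abundant transcripts (bottom, 17 kept embryos), each against the label time in hours. Each point is 1 embryo and the dotted line separates the groups; the share climbs to 24.1% by 56 h and lies between 22.8% and 30.0% afterwards, and embryo 37 is the low point of the middle panel.

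Embryos close in time were alike, and embryos on both sides of 56 to 57 h resembled each other. Likeness was measured as the Spearman correlation between 2 embryos over the tested transcripts at equal depth, given as a description. Its mean was 0.54 within 47-56 h, 0.46 within 57-69 h (0.52 without embryo 37) and 0.42 between the groups. The embryo at 57 h was most like the embryo at 56 h, and its mean likeness was 0.49 to the earlier group and 0.51 to the later one without embryo 37. The embryo at 56 h likewise had 0.51 to its own group and 0.52 to the later one. At the ends of the range the groups were far apart, with 0.26 between the embryos at 47 and 69 h. The embryo at 69 h had 0.34 to the earlier group and 0.46 to its own. Embryo 37 had 0.36 on average to all other embryos and was most like the embryo of 50 h. That embryo was also the closest to those of 48, 49, 51, 52, 53 and 54 h. The likeness of embryo 37 to the 47-56 h embryos ran from 0.32 to 0.40, so its closest partner does not place it in time.

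**Figure D3:**
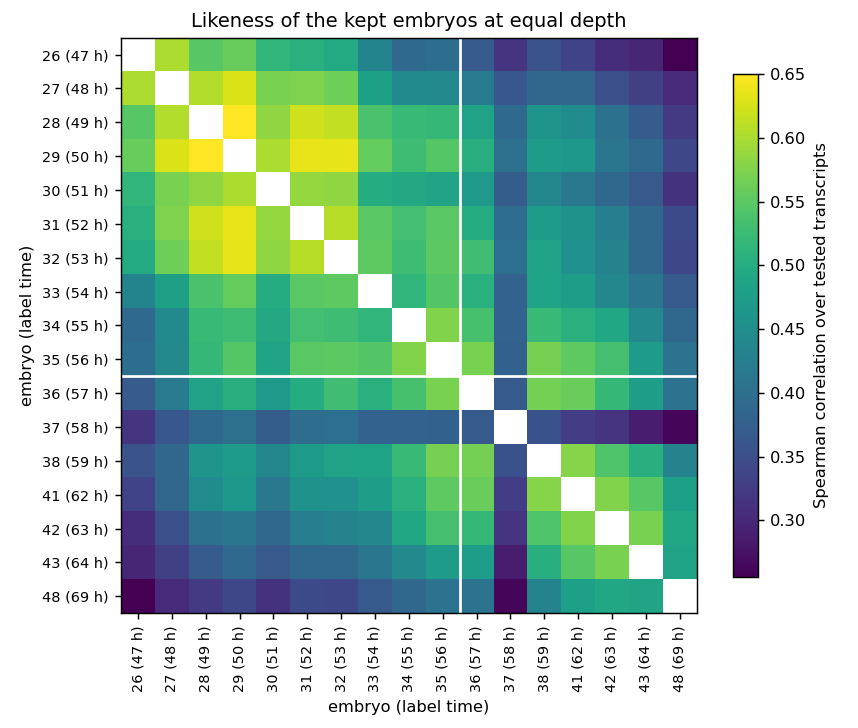
Spearman correlation between each pair of the 17 kept embryos over the tested transcripts, after thinning to 154116 counts; both axes list embryos with their label time, colour gives the correlation, and white lines separate the groups. Values run from 0.26, for 47 against 69 h, to 0.65, for 49 against 50 h; the pairs around 55 to 59 h are alike across the white lines, and embryo 37 forms a dark stripe.

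The 34 higher transcripts had low levels at 47-56 h and rose steeply. The median of their mean levels was 11.8 CPM at 47-56 h and 524 CPM at 57-69 h, while over all tested transcripts these medians were 49.4 and 42.0 CPM. Their log2 changes ran from 1.32 to 7.63, with a median of 5.66. None of the 34 was without counts in all earlier embryos, but the filter fixed this for the 27 with no count in embryo 37. Of the 134 higher transcripts found without the filter, 93 were not in the filtered test and 48 had no count in any earlier embryo. In the kept later embryos other than embryo 37, 28 of the 34 had a count in all 6. Only 1 of the 34 had CPM ranges that did not overlap between the groups, against 4 of all tested transcripts (0.0686%). Without embryo 37 it was 19 of the 34, among 44 of the transcripts tested.

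Taken hour by hour, the share of counts on the 34 climbed through both groups. As a share of all transcript counts they made up 0.0517% at 47 h, 0.158% in the embryo of 51 h and 0.911% in that of 56 h, the last of the earlier group. The first later embryo, of 57 h, held 1.26%. Those of 59, 62, 63 and 64 h held 2.30%, 3.26%, 6.98% and 9.57%, and the last, of 69 h, held 16.4%. Embryo 37, at 58 h, lay below its neighbours with 0.420% (exact 95% binomial interval 0.389% to 0.454%). The 95% intervals of these shares were at most 0.198 percentage points wide and cover counting error only. The most abundant of the 34 held most of this share at the end of the earlier group, with 0.468% of the counts at 54 h, 0.692% in the embryo of 55 h and 0.646% in that of 56 h. The other 33 together held 0.0490% at 47 h and 0.264% at 56 h. In the later group these 33 went from 0.548% at 57 h to 11.4% at 69 h, where the most abundant held 4.99%. At 47 h, 3 of the 34 reached 50 CPM, and 12 did so by 56 h, 20 in the embryo of 57 h and all 34 in that of 64 h.

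Embryos that had no part in choosing these transcripts gave their pooled share before 47 h and after 69 h. In the 7 kept embryos of 40-46 h, which belong to embryos 79-126, the 34 took 0.00153% at the lowest, 0.00803% in the median and 0.00921% at the highest. In the 9 kept embryos of 70-79 h, numbered 49-58, they took 0.0138%, 9.13% and 14.7%. In the 6 of 80-89 h they took 0.0779%, 0.117% and 0.155%, and in the 10 of 90-99 h 0.0182%, 0.132% and 0.230%. The share was still 6.29% at 77 h and was 0.223% at 79 h, and the 1 embryo at 76 h stood apart at 0.0138%. Among the windows of embryos 26-78, 57-69 h held the highest mean of 23 of the 34, 70-79 h that of 10 and 90-99 h that of 1. The choice of the 34 favoured 57-69 h here and kept the earlier group from being the highest. The same count was not made for all tested transcripts. The step from 46 to 47 h is also a change between runs of embryo numbers, whose part in the difference was not tested. Between 70-79 h and 90-99 h, groups that share no embryo with the main comparison, 237 of 4641 tested transcripts were higher at 90-99 h (5.11%) and 77 were lower (1.66%). Of the 34, 5 were lower and 1 was higher there, and 24 did not pass the filter on low counts.

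**Figure D4:**
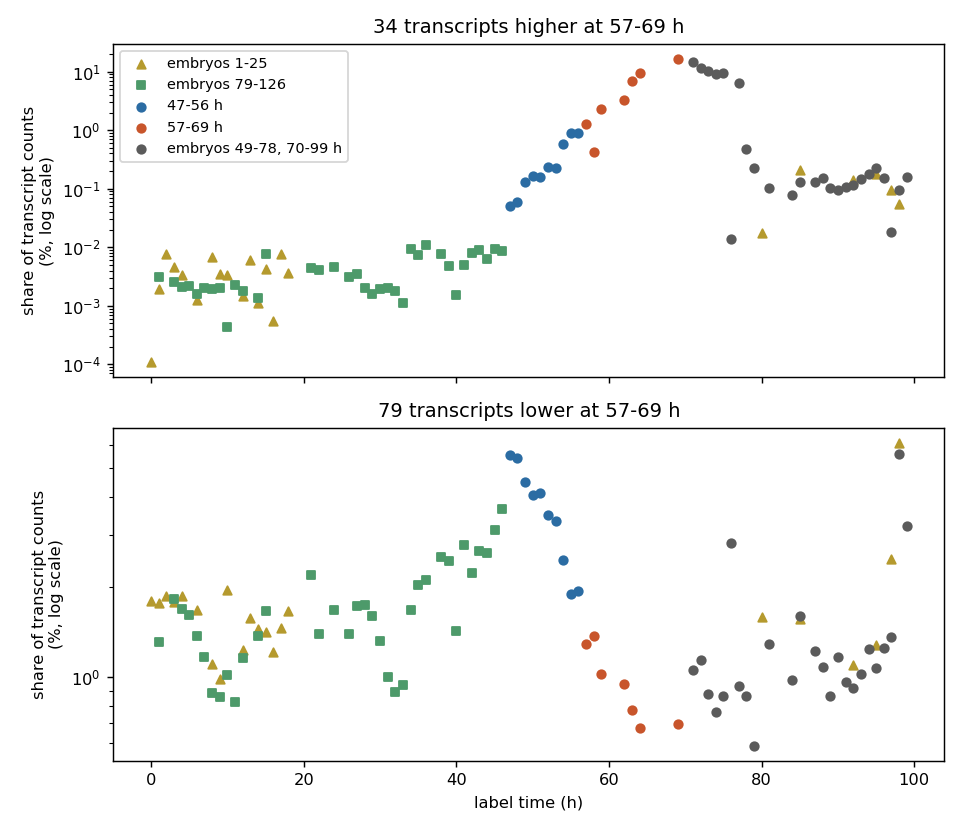
Share of all transcript counts, on a log scale, taken by the 34 transcripts that were higher at 57-69 h (top) and the 79 that were lower (bottom), in each kept embryo of the series with a label time in hours. Blue and orange points are the 17 embryos that chose the transcripts, grey points later embryos of the same run, and green squares and yellow triangles the other runs; the 34 climb from 0.0517% at 47 h to 16.4% at 69 h and lie between 0.0182% and 0.230% in the grey points from 80 h on, and the 79 fall from 5.54% at 47 h to 0.677% at 64 h.

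The 2 named risers, the largest in log2 change and in mean level among the 12 higher transcripts that stayed called when any kept embryo was left out, differed in their timing. HD_v1_tr_11164 was at 0 CPM at the lowest, 2.93 CPM in the median and 60.4 CPM at the highest in the 47-56 h embryos. At 57-69 h it was at 0 CPM in embryo 37, 1221 CPM in the median and 5716 CPM at the highest, which was the embryo of 64 h. No embryo was kept between 64 and 69 h, so the hour of its peak is open. The left-out embryo of 65 h had 48 counts of it, or 18120 CPM of a very small total. All kept later embryos except embryo 37 lay above all earlier ones. It rose by a log2 change of 7.11 (SE 1.36), with an adjusted p of 0.0129 in edgeR's test and 0.00364 without embryo 37, and 2.72e-05 to 0.0309 over the alternatives. Its level fell off soon after, with 856 CPM as the highest value of the 70-79 h embryos and 138 ± 284 CPM (SD, n = 9) as their mean. At 90-99 h it was 314 ± 274 CPM (SD, n = 10). Against the mean of both neighbouring windows it was higher at 57-69 h by a log2 change of 5.65 (SE 1.13, edgeR adjusted p = 0.00316).

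HD_v1_tr_03214 came later and went higher. It was at 0 CPM at the lowest, 5.10 CPM in the median and 213 CPM at the highest at 47-56 h, and at 0, 742 and 19733 CPM at 57-69 h. Here the groups overlapped, since the embryos of 57 and 59 h had 35.2 and 29.4 CPM and those from 62 h on had 742 CPM or more. The log2 change was 6.90 (SE 1.50, edgeR adjusted p = 0.0215, 0.0106 without embryo 37), and the adjusted p ran from 2.49e-05 to 0.0584 over the alternatives, missing the threshold with limma. At 70-79 h it was at 12136 ± 9685 CPM (SD, n = 9), above its mean at 57-69 h of 5133 ± 7426 CPM (SD, n = 7). By 80-89 h it had 59.8 ± 56.3 CPM (SD, n = 6). From 70-79 h to 90-99 h it fell by 10.05 on the log2 scale (SE 1.20, edgeR adjusted p = 1.76e-06).

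The 79 lower transcripts included some with no count at 57-69 h and others that were still counted in every embryo. Of the 79, 32 had no count in any of the 7 kept later embryos, and 31 of these had none in the 6 left-out embryos either. At 47-56 h these 32 had means from 22.5 to 218 CPM, with a median of 45.2 CPM. Each had counts in at least 7 of the 10 embryos, which the filter on low counts required of any transcript without later counts. Such transcripts entered the test only through the group where they were high. Of all tested transcripts, 35 had no count at 57-69 h. With 3 counts summed over the later embryos as the floor, which is 0.582 CPM, they were at least 38.1-fold lower for the smallest and at least 364-fold lower for the largest, with a median bound of 79.7-fold. Afterwards, 24 of the 32 had a count in at least 1 of the 9 kept embryos of 70-79 h, 13 in at least 3 of these, and 5 had none in any kept embryo of 70-99 h. The median of their means at 70-79 h was 9.72 CPM, and 3.56 CPM without the embryo of 76 h. Counts at 70-79 h were common: of all 5835 tested transcripts 152 had a mean under 1 CPM there, and of the 79 lower ones 16 did. Another 32 had counts in every kept embryo of both groups, and the median of their means was 763 CPM at 47-56 h and 176 CPM at 57-69 h. Their log2 changes ran from -3.95 to -0.96, with a median of -1.65. The remaining 15 had counts in some of the later embryos. CPM ranges did not overlap between the groups for 17 of the 79, against 30 of all tested transcripts (0.514%), and without embryo 37 for 25 of the 79, against 64 of those tested.

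The pooled share of counts on the 79 also fell within the earlier group. Their share of counts was 5.54% at 47 h, 4.14% in the embryo of 51 h and 1.95% in that of 56 h. The later embryos held 1.29% at the first hour, 57 h, then 0.950% at 62 h, 0.677% at 64 h and 0.699% in the last, of 69 h. Embryo 37 held the highest share of the 7 later embryos, 1.37% (exact 95% binomial interval 1.31% to 1.43%). The share was not split by transcript, so it does not tell how many of the 79 fell before 57 h. Of the 79, 61 reached 50 CPM in the first embryo, of 47 h, and again 61 in the 53 h embryo. The 56 h embryo had 40 of them at that level. Within 47-56 h only 2 of all 5835 tested transcripts were called as falling with the hour (edgeR adjusted p under 0.05). Before 47 h, in embryos 79-126, the share was 1.68% in the median embryo of 20-29 h, 1.67% at 30-39 h and 2.64% at 40-46 h. After 69 h, within embryos 26-78, the medians were 0.879% at 70-79 h, 1.15% at 80-89 h and 1.20% at 90-99 h, with 1 embryo of 90-99 h reaching 5.58%. Among the windows of embryos 26-78, 63 of the 79 had their highest mean at 47-56 h. The choice of the 79 favoured 47-56 h in this count and kept 57-69 h from being the highest. For all tested transcripts this count was not made. Between 20-29 h and 40-46 h, groups that share no embryo with the main comparison, 506 of 5977 tested transcripts were higher at 40-46 h (8.47%) and 554 were lower (9.27%). Of the 79, 16 were higher and 3 were lower there, and 38 did not pass the filter on low counts.

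HD_v1_tr_05918 and HD_v1_tr_10589 are the named transcripts of each kind, chosen in the same way among the 32 lower transcripts that stayed called when any kept embryo was left out. HD_v1_tr_05918 was at 57.9 CPM at the lowest, 205 CPM in the median and 382 CPM at the highest at 47-56 h, and had no count in any embryo of 57-69 h. The lowest of these values was that of the 56 h embryo, and the groups did not overlap. Its pooled level of 212 CPM fell to below the floor of 0.582 CPM, at least 364-fold lower (edgeR adjusted p = 2.74e-05). Earlier, at 20-29 h, its mean was 0.679 ± 1.06 CPM (SD, n = 7). It was 9.38 ± 14.3 CPM (SD, n = 9) in the 30-39 h embryos and 86.4 ± 68.3 CPM (SD, n = 7) in those of 40-46 h. Later, it had counts in 1 of the 25 kept embryos of 70-99 h, at 158 CPM, which was the embryo of 76 h that also stood apart in the share of the 34 higher transcripts.

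HD_v1_tr_10589 was at 713 CPM at the lowest, 2347 CPM in the median and 4448 CPM at the highest at 47-56 h, and at 430, 651 and 1342 CPM at 57-69 h. The groups overlapped through the embryos of 55 h on the one side and 57, 58 and 59 h on the other. It fell by 1.67 on the log2 scale (SE 0.34, edgeR adjusted p = 0.0179, 0.0160 without embryo 37), and the adjusted p ran from 0.00147 to 0.161 over the alternatives, missing the threshold in 3 of 32. With the hour it fell by 0.16 per hour on the log2 scale over 47-69 h (SE 0.02, edgeR adjusted p = 5.71e-05). From 20-29 h to 40-46 h it had risen by a log2 change of 1.68 (SE 0.43, edgeR adjusted p = 0.0149). From 70 h on its mean stayed between 513 and 774 CPM in the 3 windows.

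**Figure D5:**
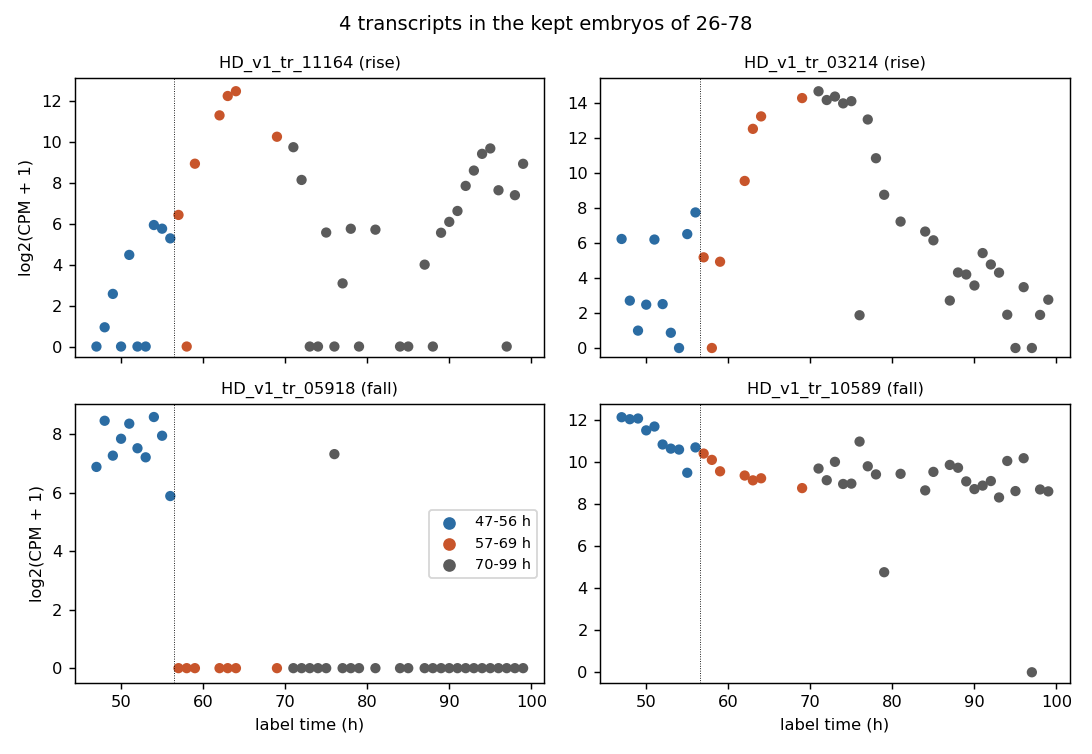
Level of the 4 named transcripts as log2(CPM + 1) against the label time in hours, in the kept embryos of the run 26-78; each point is 1 embryo, blue at 47-56 h, orange at 57-69 h and grey at 70-99 h. Among the embryos shown, of which none lies between 64 and 69 h, HD_v1_tr_11164 is highest at 64 h and HD_v1_tr_03214 at 71 h. HD_v1_tr_05918 is at 0 from 57 h on except in the embryo of 76 h, and HD_v1_tr_10589 declines from 47 to 69 h.

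The hour itself was tested in place of the groups, since both groups changed within themselves. Over 47-69 h, 94 of 5835 transcripts rose with the hour (1.61%) and 153 fell (2.62%). Without embryo 37 these were 144 and 230, and with RLE factors 139 and 123. Without the filter on low counts they were 673 and 614 of 10932, so which direction had more calls depended on the filter and the scaling. The median slope of the 94 was 0.45 log2 units per hour and that of the 153 was -0.31, against -0.02 for all tested transcripts. The 94 took 0.465% of the counts at 47 h and 22.6% at 69 h, and the 153 took 12.7% and 1.38%.

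Inside each group the hour was then tested on its own. Within 47-56 h, 64 transcripts rose with the hour (1.10%) and 2 fell (0.0343%). The 64 rose by a median of 1.10 log2 units per hour. The median of their mean levels was 2.67 CPM in the first 5 embryos, 119 CPM in the last 5 and 374 CPM at 57-69 h. The levels within 47-56 h come from the embryos that chose the 64. A transcript without counts in the first 5 embryos passed the filter on low counts only with counts at 57-69 h, which favoured a high later level. Within 57-69 h the median slope of the 64 was 0.02, and 1 of them was called higher there. The count of calls within 47-56 h rested on the ends of the interval: it was 66 in all, and 32 without the embryo of 47 h, 32 without that of 48 h, 25 without that of 55 h and 26 without that of 56 h. Without embryo 37, when 6347 transcripts passed the filter of the joint model, it was 108.

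Within 57-69 h, 5 transcripts rose with the hour (0.0857%) and 47 fell (0.805%). Inside this group the 47 fell by a median of 1.37 log2 units per hour. The medians of their mean levels were 331 CPM over the embryos of 47-56 h and 94.9 CPM over those of 57-69 h. Transcripts with counts in only some later embryos passed the filter on low counts only with counts at 47-56 h, which favoured a high earlier level. The median slope of the 47 within 47-56 h was -0.10, and 1 of them was called lower there. Without the filter on low counts the calls within 57-69 h were 46 higher and 62 lower, so their direction was less uneven. Without embryo 37 they were 7 higher and 47 lower, with 35 of the 52 calls shared, and without embryo 48 they were 9 and 33, with 27 shared. A test of the difference between the slopes, later minus earlier, passed for 64 transcripts, of which 3 were higher (0.0514%) and 61 were lower (1.05%). The slopes within 57-69 h rest on 7 embryos, with none between 64 and 69 h and embryo 37 as the second.

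Finally, the later group was set against both of its neighbours in the same run, to find transcripts that peaked or dipped at 57-69 h. Of 7094 transcripts tested against the mean of 47-56 h and 70-79 h, 105 were higher at 57-69 h (1.48%) and 40 were lower (0.564%). For 79 of the 105 the mean CPM at 57-69 h was above both neighbours, and for all 40 it was below both. The same embryos made the calls, so this position is largely built into the choice. How many of all 7094 lay above or below both was not counted. The medians of the mean levels of the 105 were 57.2 CPM at 47-56 h, 274 CPM at 57-69 h and 3.11 CPM at 70-79 h. Those of the 40 were 43.5, 0 and 116 CPM, and transcripts with no count at 57-69 h entered this test only through the neighbours. This comparison shares the embryos of both groups with the main one. Without embryo 37 it gave 127 higher and 36 lower.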

How the data were processed

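The authors deposited unnormalized counts of reads for each transcript model in 126 single embryos. The submitters' processing notes name CASAVA 1.8, Bowtie2 2.1.0 and HTSeq 0.5.4p3. Genome build, annotation and strand setting: not given in the sources used here, so counts of overlapping or near-identical models are uncertain. Tests and library sizes used the 12746 transcripts and not the 92 spike-ins or the 5 summary lines. The median total was 634045 counts, and reads carry no molecular identifiers, so intervals and floors cover counting error only.

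Groups were tested with edgeR 4.0.16 (R 4.3.3) on the 17 kept embryos, with TMM factors, the default filter, trended dispersion and an adjusted p threshold of 0.05. The hour was tested in the same way as 1 slope over both groups and as 1 slope per group, and the neighbour contrast in a fit with 70-79 h added. This test returns no SE, so each SE given is the absolute log2 change divided by the square root of the F value. Single measures were tested by exact permutation over embryos, and relations with the hour by 100000 permutations. Detection was compared after thinning to 154116 counts. The code was tested on simulated data. Other steps ran in Python 3.11.15 with scipy 1.17.1, numpy 2.4.6, pandas 2.3.3 and, for plots, matplotlib 3.10.9.

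Named transcripts had to pass with and without embryo 37 and without any single kept embryo, reach a mean of 50 CPM in the higher group and have a count in all of its embryos but at most 1. Of these the largest by log2 change and by mean CPM difference were taken, 2 per direction. The members and lists were chosen with earlier results of these data known. Alternatives were RLE factors, spike-in library sizes, DESeq2 1.42.0, limma 3.58.1, a test against a 1.5-fold change, other filters on low counts and depth, thinned counts, the log2 total as a covariate, wider fits, and leaving out each embryo. The within-group relations of single measures with the hour, the 50 CPM counts, the later counts of the lost transcripts and the leave-outs of the hour tests were chosen after seeing the data. No 2 of the 23 embryos had identical counts.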

Additional observations from a re-analysis of the deposited data

Results flagged for a closer look

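Values far from the rest of their group were looked for in 18 groups of measures, and chance alone flags about 1 in 20. Embryo 37, at 58 h, had 2059 transcripts detected at equal depth, against 4553 to 5910 in the other kept embryos of 57-69 h. Embryo 29, at 50 h, had a total of 1756168 counts, against 609737 to 1208796 in the others of 47-56 h. In embryo 31, at 52 h, 92.9% of reads did not align, against 41.0% to 49.0% in the others, while its likeness to its group was 0.57. Embryo 35, at 56 h, had 213 CPM of HD_v1_tr_03214, against 0 to 89.7 CPM in the others, and it is the last hour before the later group. The slope with the hour differed between 47-56 h and 57-69 h for 64 transcripts by a test of the difference itself, and at an unadjusted p under 0.05 for 485.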

How the results depend on the processing

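Of 360 alternative values, 312 kept their direction and their side of the threshold or stayed within 1.5 times the count given. The 113 calls between the groups became 208 without embryo 37, 232 with DESeq2, 372 with limma, 68 against a 1.5-fold change, 211 without the filter on low counts (134 higher, 77 lower), 476 in a fit over 5 windows of the run (349 higher, 127 lower) and 1799 in a fit over all 14 groups of the series. With at least 10 counts in at least 4 embryos there were 163 (88 higher, 75 lower), and at unadjusted p under 0.05 there were 583. Leaving out 1 embryo gave 50 to 208 calls. Without any 1 of embryos 27, 28, 29, 30, 31, 32, 41, 42, 43 and 48 there were 50 to 71, which are 70, 65, 56, 50, 69, 68, 71, 63, 59 and 55, and 44 calls, 12 higher and 32 lower, were made in every leave-out. Calls with the hour over 47-69 h became 374 without embryo 37 and 1287 without the filter on low counts (673 higher, 614 lower). They ran from 191 to 374 over the leave-outs. Those within 47-56 h became 108 without embryo 37 and ran from 25, 26 and 32 to 108 over the leave-outs, those within 57-69 h became 108 without the filter, and those against both neighbours became 350 without it. The difference in detected transcripts ran from -1073 to -431.6 over the leave-outs and lost the threshold without embryo 27 (-894.2), 28 (-883.9), 29 (-830.2), 31 (-870.5), 32 (-852.6), 35 (-879.9), 37 (-431.6) or 48 (-847.2). With no embryo left out, the log2 differences in total and in counts per spike-in count passed the threshold at -3.01 and -1.93, and the total also without embryo 41, at -0.74, in a range of -0.74 to -0.23. The difference in reads not aligned turned from -2.68 to 4.15 percentage points with no embryo left out and to 1.99 without embryo 31, in a leave-out range of -3.77 to 1.99. The relation of counts per spike-in count with the hour turned from r = -0.07 to 0.00279 without embryo 37. The cause of these shifts was not tested, apart from the number of embryos and transcripts that each alternative changes. The alternative without embryos dominated by 1 transcript was not run, since no kept embryo had over 10% of its counts on one. Transcripts under about 1 count per embryo, which is 6.49 CPM in embryo 37, are not resolved at this depth. No paired analysis was possible because the replicate numbers only name embryos in accession order and the labels tie no embryos together.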
